A study of Homo sapiens and Mus musculus with 20 samples.

Results

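31 protein-coding genes with very long bodies, most of them coding for synaptic and cell-adhesion proteins and several lying at common fragile sites, were examined for Satb1 binding in MCF10A, a human mammary epithelial cell line. The genes were chosen by name, with earlier results of these data known, from the 20163 protein-coding genes of the GENCODE annotation on GRCh37 (hg19). A peak was given to a gene when its midpoint lay between the first and the last annotated base. The 31 bodies ran from 652 kb (CSMD2) to 2474 kb (RBFOX1) and together held 44.7 Mb, or 1.56% of the genome. Their flanks, 1 Mb on either side of each gene without the body of any of the 31, held 60.0 Mb.

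MCF10A cells do not make Satb1, so eGFP fusions were put in under a cumate-inducible promoter, and cells were sorted on the fluorescence of the fusion. ChIP with an antibody to GFP was done on cells with the full-length protein (FL), on cells with a protein lacking the homeodomain (∆HD) and on cells with only the N-terminal and CUT1 domains (N-C1). FL cells were also treated for 2 h with camptothecin, an inhibitor of topoisomerase I (label CP, read so from the treatment protocol), or with ICRF-193, an inhibitor of topoisomerase II (label ICRF). ATAC-seq was done on native cells and on cells with FL. Each condition gave 1 deposited peak list, although the study made its libraries in duplicate, and how duplicates were joined in a list was not stated. The 5 ChIP lists held 22877 (FL), 24475 (CP), 37350 (ICRF), 50537 (∆HD) and 62856 (N-C1) peaks, and the ATAC lists held 175989 (native) and 206170 (FL). The study states 1 range of depth for its ChIP libraries as a whole, the depth behind each list is unknown, and so lists of unequal length were compared by shares and by ratios within a list. All intervals are 95% intervals that cover counting error only, and no test between conditions was possible. The start of the canonical transcript was open by ATAC in native cells at 7 of 8 basal mammary markers (KRT5 and KRT14 among them, TP63 not), at 5 of 6 neuronal markers and at 1 of 4 lymphocyte markers. An open start therefore did not separate the mammary from the neuronal markers.

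Satb1 is a nuclear protein known from lymphocytes, where it organizes chromatin loops. It binds A/T-rich DNA that unpairs easily, through its CUT domains and a homeodomain. Genes as long as these consist almost wholly of introns, and many but not all of them are A/T-rich, replicate late and are mainly used in neurons. Common fragile sites are places where chromosomes break when replication is slowed, and FHIT and WWOX, both tumour suppressors, are the classical examples.

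The DNA under the strongest or most unusual peaks is shown first, since the results turn on how the Satb1 consensus is arranged in it. The study found that consensus by motif discovery in its own ChIP peaks, the FL peaks of these cells included. How often FL peaks hold the consensus is therefore a description only. The consensus was searched as exact matches to a pattern of 7 bases: C or T, then TA, then A or T, then TA again, then A or G, as in TTATTAG. The pattern is its own reverse complement, so a search of either strand finds the same places, and matches may overlap. A 400-bp window of the genome held a match in 25.8% of cases, one of the 31 bodies in 30.9% and one of the flanks in 28.8%. The stretches below are 200 bp at the summit of a peak, from the forward strand of GRCh37, with matches in capitals. The PTPRD stretch (chr9:10411609-10411808, intron 2 of 45) is from the FL peak with the highest fold enrichment over input among the 31 genes. That of NRXN3 (chr14:79651369-79651568, intron 15 of 20) ranked 4 and carried evenly repeated matches. That of DLG2 (chr11:83288291-83288490, intron 19 of 27) came from the peak with the most matches. That of LRP1B (chr2:141935229-141935428, intron 7 of 90) is from the ∆HD peak with the highest fold enrichment. CCSER1 (chr4:91906893-91907092, intron 9 of 10) and MAGI2 (chr7:78524315-78524514, intron 2 of 21) gave the strongest peaks absent from FL, in ∆HD and in N-C1.
PTPRD: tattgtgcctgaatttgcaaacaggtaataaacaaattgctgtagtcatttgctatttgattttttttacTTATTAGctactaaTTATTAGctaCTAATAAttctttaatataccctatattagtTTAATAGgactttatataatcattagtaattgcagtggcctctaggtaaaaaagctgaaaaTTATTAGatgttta
NRXN3: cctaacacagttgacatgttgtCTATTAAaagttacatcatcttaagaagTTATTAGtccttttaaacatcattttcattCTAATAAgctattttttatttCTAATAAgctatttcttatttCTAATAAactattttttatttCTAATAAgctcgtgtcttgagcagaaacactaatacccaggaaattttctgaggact
DLG2: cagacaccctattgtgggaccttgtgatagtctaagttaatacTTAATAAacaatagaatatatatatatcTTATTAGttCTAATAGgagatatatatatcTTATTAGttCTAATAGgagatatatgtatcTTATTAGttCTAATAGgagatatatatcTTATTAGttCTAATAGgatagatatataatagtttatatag
LRP1B: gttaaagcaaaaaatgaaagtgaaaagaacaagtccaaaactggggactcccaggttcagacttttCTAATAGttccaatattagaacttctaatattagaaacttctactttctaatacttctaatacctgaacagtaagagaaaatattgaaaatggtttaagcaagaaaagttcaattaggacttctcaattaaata
CCSER1: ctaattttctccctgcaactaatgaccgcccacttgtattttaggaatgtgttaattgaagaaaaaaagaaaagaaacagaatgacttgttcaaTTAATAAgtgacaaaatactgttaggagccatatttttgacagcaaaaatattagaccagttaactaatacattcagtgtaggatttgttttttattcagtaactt
MAGI2: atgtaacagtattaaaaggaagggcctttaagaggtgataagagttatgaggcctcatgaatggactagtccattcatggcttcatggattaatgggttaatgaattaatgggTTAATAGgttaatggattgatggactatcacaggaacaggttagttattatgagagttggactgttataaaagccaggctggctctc

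The PTPRD peak (chr9:10411310-10412154) carried 5 matches in the stretch shown and 6 in 400 bp. PTPRD codes for a receptor tyrosine phosphatase that organizes synapses. Its fold enrichment was 46.4 in FL, 42.8 in CP, 51.6 in ICRF, 36.4 in ∆HD and 75.1 in N-C1, and the last of these was the highest N-C1 value in the 31 genes. Fold enrichments were set side by side and not divided by each other, since each list has its own depth. The NRXN3 peak (chr14:79651130-79651773), with 7 matches in 400 bp, was likewise strong in every list: 34.3 in FL, 29.6 in CP, 32.3 in ICRF, 30.5 in ∆HD and 67.8 in N-C1. NRXN3 codes for a neurexin, a presynaptic adhesion protein.

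At the ERC2, DLG2 and CSMD3 peaks, as at that of PTPRD, ∆HD had the lowest fold enrichment of the 5 lists, or no peak. These peaks were picked for their values in lists other than ∆HD or for their matches, so low ∆HD values are a description only. At the NRXN3 peak, also picked for its FL value, CP had the lowest. The ERC2 peak (chr3:56004101-56004764, intron 12), 80.5% A/T over 200 bp at its summit, read 32.8 in FL, 33.0 in CP, 41.1 in ICRF, 22.7 in N-C1 and 8.96 in ∆HD. ERC2 codes for a scaffold of the presynaptic active zone. The DLG2 peak (chr11:83288110-83288597), in the gene of a postsynaptic scaffold, held 10 matches in 400 bp, most of them laid as facing pairs in a tandem repeat. Its fold enrichment was 29.0 in FL, 18.6 in CP, 21.2 in ICRF and 28.9 in N-C1, and ∆HD had no peak there. The CSMD3 peak (chr8:113455666-113456420, intron 32), second in FL at 44.9, reached 47.9 in CP and 58.2 in ICRF, the highest of the 31 genes in those lists, with 65.0 in N-C1 and 18.7 in ∆HD.

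The peaks below were picked for their ∆HD or N-C1 values, so that these values are a description only. The LRP1B peak of intron 7 (chr2:141934934-141935680), with 1 match in the stretch shown, was the strongest of ∆HD at 38.6, beside 28.7 in FL, 23.8 in CP, 34.5 in ICRF and 51.9 in N-C1. LRP1B codes for a large endocytic receptor of the LDL receptor family. The CCSER1 peak (chr4:91906710-91907268) read 13.7 in ∆HD, 6.04 in N-C1, 5.92 in CP and 4.80 in ICRF, with no FL peak. The MAGI2 peak (chr7:78524197-78524592), in the gene of a synaptic scaffold, read 12.6 in N-C1, 10.5 in ∆HD and 5.74 in CP, with none in FL or ICRF. None of these named peaks overlapped an ATAC peak in native or FL cells.

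The 31 bodies held 502 FL peaks, 1.12 per 100 kb (1.03 to 1.23), against 586 peaks and 0.976 per 100 kb (0.899 to 1.06) in the flanks. The whole genome held 0.800 per 100 kb, all protein-coding bodies 0.705 (0.691 to 0.719), and the 293 other genes of 500 kb or more 0.950 (0.910 to 0.991). The 31 genes were thus richer in FL peaks than each of these backgrounds. The excess was 1.15-fold (1.02 to 1.30) over their flanks and 1.18-fold (1.07 to 1.31) over the other long genes. It is a description only, since the 31 genes were chosen with earlier results of these data known. Their sequence was richer in the consensus as well, with 99.7 matches per 100 kb against 92.5 in the flanks, 94.0 in the other long genes and 81.8 in the genome. Per 100 matches there were 1.13 FL peaks in the bodies, 1.06 in the flanks, 1.01 in the other long genes and 0.978 in the genome. Against the parts of the flanks outside any protein-coding gene, which hold 96.3 matches per 100 kb, the body-to-flank ratio was 1.04 (0.911 to 1.18) and its interval took in 1. It also took in 1 with whole flanks when peaks needed a −log10 q of at least 5 (1.13, 0.999 to 1.28). The excess over the flanks in FL was therefore slight, and not seen against their gene-free part.

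The other ChIP lists gave like ratios. The bodies held 562 CP, 825 ICRF, 1148 ∆HD and 1491 N-C1 peaks, and the body-to-flank ratio was 1.14 (1.02 to 1.28) in CP, 1.14 (1.04 to 1.25) in ICRF, 1.19 (1.09 to 1.28) in ∆HD and 1.24 (1.15 to 1.33) in N-C1. With the gene-free part of the flanks it was 1.01 (0.898 to 1.14), 1.03 (0.929 to 1.13), 1.11 (1.02 to 1.21) and 1.12 (1.04 to 1.21), so that only the truncated proteins kept an interval above 1. The consensus itself was 1.08 times as dense in the bodies as in the whole flanks and 1.04 times as dense as in their gene-free part. The intervals of the 5 lists overlapped each other.

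Open chromatin went the other way. ATAC peaks numbered 980 in native cells and 1012 in FL cells, or 2.19 and 2.27 per 100 kb. The body-to-flank ratio was 0.497 (0.462 to 0.535) and 0.456 (0.424 to 0.490), and it was 0.632 (0.582 to 0.685) and 0.588 (0.543 to 0.636) against the gene-free flanks. ATAC peaks covered 1.22% and 1.23% of the bodies' bases and 3.38% and 4.61% of the flanks'.

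Gene by gene, 18 of the 31 had more FL peaks per 100 kb in the body than in the flank, where 57.4% of all genes of 500 kb or more did (flanks counted around each gene alone), so the share was near the background. No single gene of the 31 had an interval for this ratio that lay above 1, as 3.4% of the long genes did. The highest ratios were those of NTM (4.46, 0.891 to 43.1), from 8 peaks in the body and 2 in the flank, THSD7B (2.51, 0.794 to 8.12) and ERC2 (2.50, 0.635 to 10.3). The lowest were those of WWOX (0.490, 0.0878 to 1.85), OPCML (0.579, 0.0899 to 2.98) and GRID1 (0.782, 0.138 to 3.04). In N-C1, which has the most peaks, 24 genes were denser in the body, where 63.6% of the long genes were. 6 had an interval above 1 (SGCZ, PCDH15, LRP1B, CNTN5, PTPRD and CNTN4), where 18.8% of the long genes did. In ∆HD 24 were denser (64.2% of the long genes) and 3 had an interval above 1 (SGCZ, PTPRD and CNTN4, 11.4%). In ICRF it was 19 (54.3%) and 3 (SGCZ, MAGI2 and NTM, 9.88%), and in CP 17 (50.9%) and 0 (8.02%). NTM is not among the 17, since it had 4 CP peaks in the body, 0 in the flank and so no ratio. Long genes without a flank peak were likewise not counted as denser. With flanks counted around each gene alone, as for the long genes, 18 of the 31 were denser in CP. For ATAC only 5 genes were denser in the body in either list, where 30.2% of the long genes were in native and 26.5% in FL cells. The interval lay below 1 in 18 genes in native and 21 in FL cells, where it did in 37.3% and 42.3% of the long genes.

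**Figure D1:**
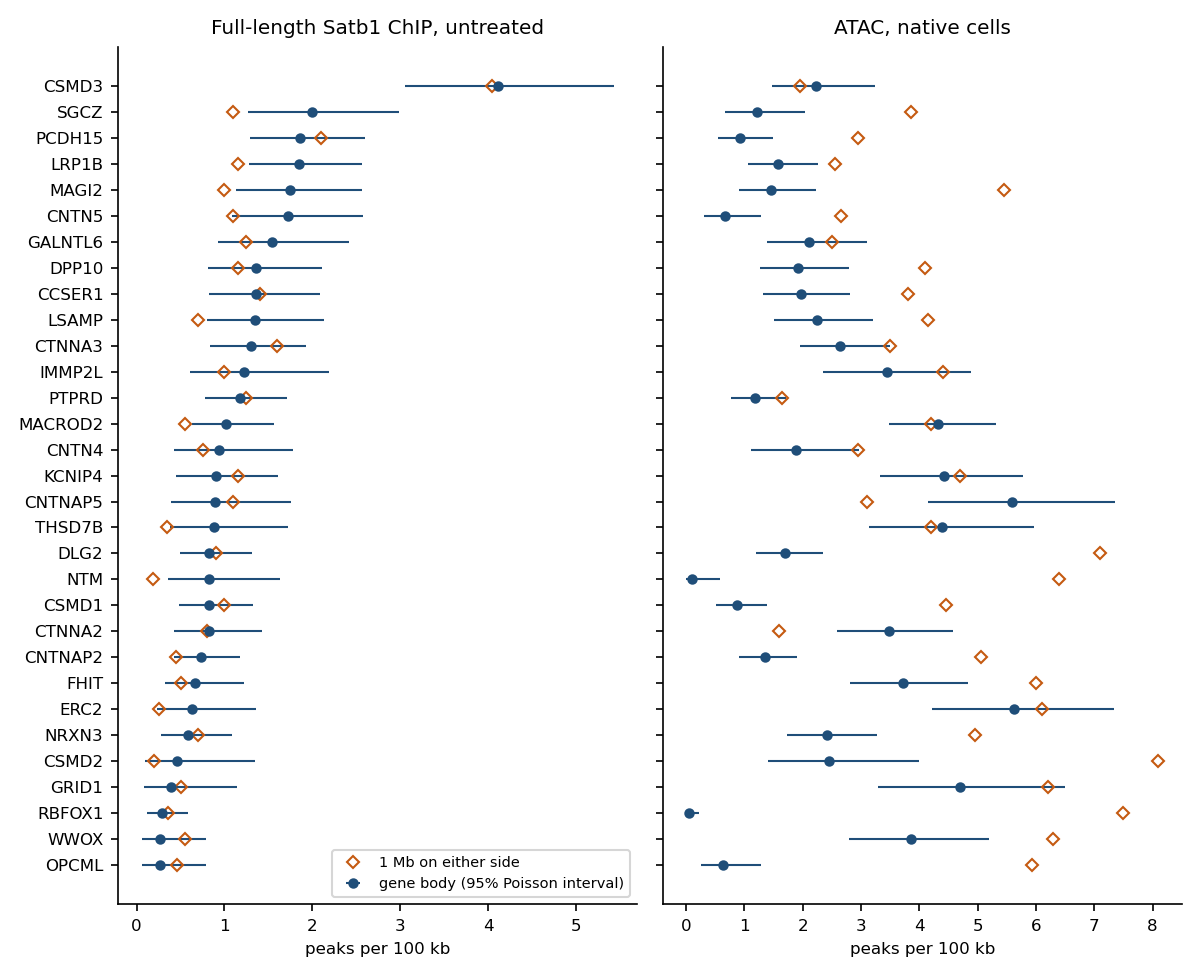
Peaks per 100 kb in the 31 genes, ordered by FL density, for the FL ChIP list (left) and the native ATAC list (right). Filled points are gene bodies with exact 95% Poisson intervals and open diamonds are the flanks of 1 Mb: FL density runs from 0.27 (OPCML) to 4.12 (CSMD3) near the flank values, while ATAC density lies below the flank in 26 genes.

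FL density in the 31 genes ran from 0.27 to 4.12 peaks per 100 kb with a median of 0.90. CSMD3, one of a family of large membrane proteins with CUB and sushi domains, was the densest: it held 50 FL, 75 CP, 100 ICRF, 100 ∆HD and 160 N-C1 peaks, with 27 ATAC peaks in native and 40 in FL cells. Its 4.12 FL peaks per 100 kb (3.06 to 5.43) lay above the intervals of the 30 others, but its flanks were as dense, at 4.05, so the gene did not stand out from its surroundings. The long arm of chromosome 8 as a whole ranked 2 of 42 chromosome arms in FL peaks per 100 matches, at 1.58 against 0.978 in the genome. How many copies of the region these cells carry was not analysed here.

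SGCZ, which codes for a sarcoglycan, followed at 1.99 per 100 kb (1.26 to 2.99), with 23 FL, 23 CP, 32 ICRF, 43 ∆HD and 57 N-C1 peaks and 14 ATAC peaks in each list. PCDH15, a protocadherin of the hair-cell tip link, held 34 FL, 34 CP, 61 ICRF, 70 ∆HD and 104 N-C1 peaks at an FL density of 1.86 (1.29 to 2.60), with 17 and 22 ATAC peaks. LRP1B held 35, 38, 55, 77 and 106 in the same order, at 1.84 (1.28 to 2.56), with 30 ATAC peaks in each list. MAGI2 held 25, 29, 38, 40 and 54, at 1.74 (1.13 to 2.57), with 21 and 23 ATAC peaks. These neighbours in the order did not differ beyond their intervals.

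At the low end stood genes with less A/T. OPCML, a cell-adhesion protein anchored to the membrane by a lipid, held 3 FL, 1 CP, 3 ICRF, 9 ∆HD and 15 N-C1 peaks, or 0.27 FL peaks per 100 kb (0.055 to 0.785), and 7 and 3 ATAC peaks. WWOX held 3, 2, 5, 12 and 11, also 0.27 per 100 kb (0.056 to 0.788), but 43 and 40 ATAC peaks. RBFOX1, which codes for a neuronal splicing factor, held 7, 5, 6, 19 and 22 in the longest body of all, 0.28 per 100 kb (0.114 to 0.583), and 1 and 0 ATAC peaks. So WWOX and RBFOX1 had nearly the same FL and N-C1 sparseness with opposite accessibility. GRID1, a delta-type glutamate receptor, held 3, 3, 3, 4 and 6 (0.39, 0.081 to 1.14) with 36 and 55 ATAC peaks. CSMD2, the relative of CSMD3, held 3, 2, 2, 5 and 6 (0.46, 0.095 to 1.34) with 16 and 22.

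Between these ends lay the other 21 genes. Among the adhesion genes FL peaks numbered 10 in NRXN3, 17 in CNTNAP2, 8 in CNTNAP5, 9 in CNTN4, 23 in CNTN5, 18 in LSAMP, 8 in NTM, 27 in PTPRD, 12 in CTNNA2 and 24 in CTNNA3. The contactins and contactin-associated proteins among them act in contacts between neurons and glia, and the catenins link cadherins to actin. Among the fragile-site genes they numbered 10 in FHIT, 21 in MACROD2, 11 in IMMP2L and 20 in CCSER1. The rest were 18 in DLG2, 6 in ERC2, 11 in KCNIP4 and 19 in DPP10 (both partners of potassium channels), 17 in CSMD1, 8 in THSD7B and 19 in GALNTL6. Pooled by kind of gene, FL density was 1.80 per 100 kb (1.47 to 2.18) for LRP1B and the 3 CSMD genes, of which CSMD3 gave 50 of 105 peaks. It was 1.07 for the adhesion genes, 1.07 for the scaffolds, 0.973 for the channel genes, 0.988 for the 4 unclassed genes and 0.922 for the fragile-site genes. The groups did not overlap, and whether genes of the other groups also lie at fragile sites was not examined.

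Across the 31 genes, FL density followed the consensus density of the body (Spearman's rho 0.914, Pearson's r 0.789, and 0.905 and 0.873 without CSMD3) and its A/T content (rho 0.900). It followed the FL density of the flank (rho 0.773), but not the ATAC density in native cells (rho -0.208) or the length of the gene (rho 0.125). In ∆HD and N-C1 rho with the consensus density was 0.963 and 0.971. These are descriptions over 31 genes that share libraries, depth and base composition, and genes are not independent replicates. A/T content ran from 54.8% to 66.3% and the consensus from 55.4 to 133 matches per 100 kb. FL peaks per 100 matches still ranged from 0.363 (OPCML) to 3.10 (CSMD3), with a median of 1.0, and they too followed A/T content (rho 0.797). CCSER1 held 125 matches and 1.35 FL peaks per 100 kb, beside 127 and 1.86 (1.29 to 2.60) in PCDH15.

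**Figure D2:**
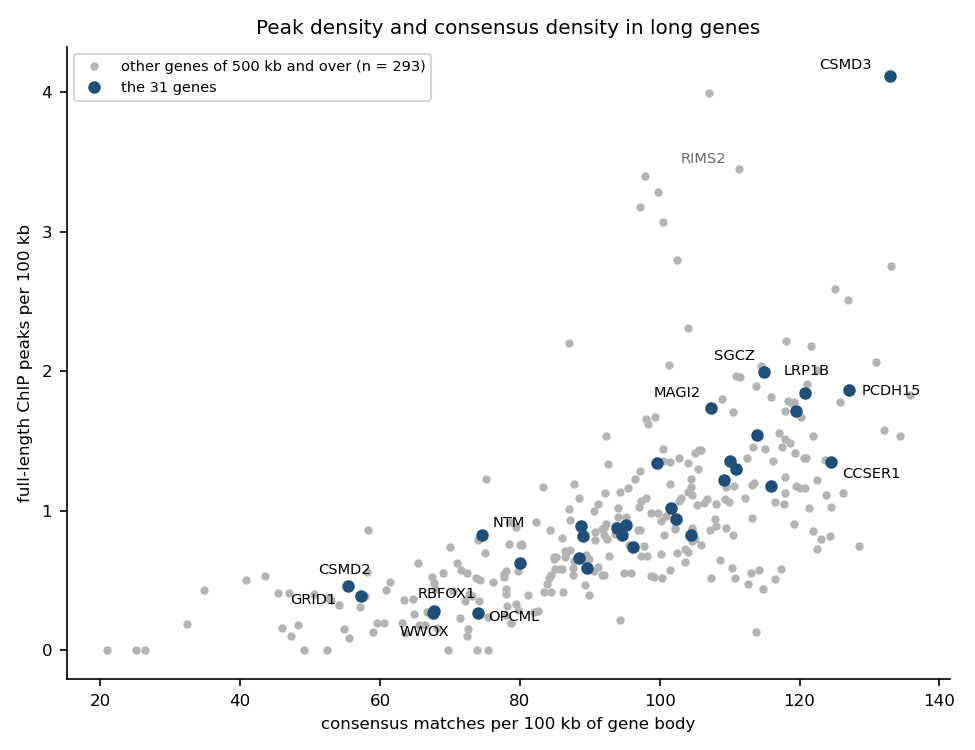
FL peaks per 100 kb of body against consensus matches per 100 kb of body, both on linear axes, for the 31 genes (dark points) and the 293 other genes of 500 kb or more (grey points). Both groups rise together, with CSMD3 highest at 4.12.

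The share of consensus matches inside a peak rose with the number that stood together. Of lone matches in the bodies, with no other match within the surrounding 400 bp, 0.302% lay in an FL peak. The share was 2.76% for 2, 12.7% for 3, 31.2% for 4 and 71.0% (65.1 to 76.4) for 5 or more. Outside the bodies and flanks the shares were 0.286%, 2.31%, 11.1%, 32.1% and 69.5%, so FL occupancy climbed on nearly the same scale. For N-C1 the share at 5 or more was 87.8% (83.2 to 91.5) in the bodies and 74.1% (73.4 to 74.7) in the rest of the genome. Matches in 1 peak are not independent, which makes those intervals too narrow. Counted as separate stretches instead, 59 of 72 dense stretches in the bodies lay in an N-C1 peak (81.9%, 71.1 to 90.0) against 70.2% (68.7 to 71.6) in the rest of the genome. For ∆HD it was 52 of 72 (72.2%, 60.4 to 82.1) against 61.1%, and for FL 45 of 72 (62.5%, 50.3 to 73.6) against 58.6%, both within the interval of the bodies.

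**Figure D3:**
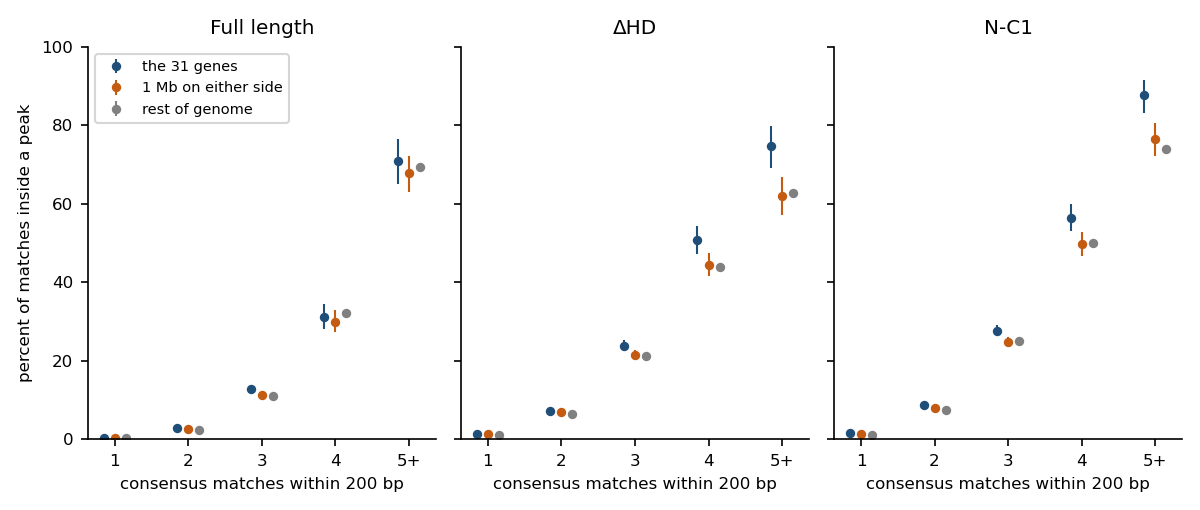
Percent of consensus matches inside an FL (left), ∆HD (middle) or N-C1 peak (right) by the number of matches within 200 bp on either side, in the 31 genes, their flanks and the rest of the genome, with exact 95% binomial intervals. In the 31 genes the FL share climbs from 0.302% at 1 match to 71.0% at 5 or more, and the N-C1 share at 5 or more is 87.8%.

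Nearly all peaks of the bodies held the consensus, which the study had itself drawn from its ChIP peaks. At least 1 match in 400 bp was found in 492 of 502 FL peaks (98.0%, 96.4 to 99.0), where 96.6% of the whole FL list had one, and at least 2 in 437 (87.1%, 83.8 to 89.9) against 82.3%. In the flanks the shares were 97.3% and 81.9%. The share with at least 1 was 96.4% in CP, 97.2% in ICRF, 94.2% in ∆HD and 94.4% in N-C1. The median FL peak of the bodies was 73.0% A/T over 200 bp, held 3 matches and had a fold enrichment of 7.46, beside 72.5%, 3 and 7.32 for the whole list.

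Nearly all FL peaks lay outside exons, as nearly all bases do. Pooled over the genes, they were densest in the first of 5 equal parts of the body. Of 502, 3 had their midpoint in an exon (0.598%, where exons make up 0.640% of the bases), in CTNNA3, KCNIP4 and SGCZ. Within 1 kb of an annotated start lay 2 (0.398%, where such windows make up 0.497% of the bases), in CNTN4 and RBFOX1. Both shares were near those of the bases. The FL peak nearest to the canonical start was a median of 32.5 kb away, from 2.53 kb in CNTNAP5 to 256 kb in NTM. First introns held 97 FL peaks (19.3%, 16.0 to 23.1) and 17.3% of the bases. The longest run of a body without an FL peak was 133 kb in CSMD3 and 788 kb in RBFOX1. With the bodies cut into 5 equal parts in the direction of transcription, part 1 held 131 FL peaks (26.1%, 22.3 to 30.2), and 20.1% of the consensus matches. Parts 2 to 5 held 95, 93, 82 and 101.

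The share in part 1 was 26.2% in CP and 25.8% in ICRF, lists that largely share their peaks with FL, and 23.6% in both ∆HD (21.2 to 26.2) and N-C1 (21.5 to 25.8), above the share of matches in each. The excess was uneven. PCDH15 (13 of 34), PTPRD (11 of 27), CNTN5 (10 of 23) and CNTNAP2 (8 of 17) had many FL peaks there, LRP1B had 6 of 35 there and 11 in part 5, and NTM, GRID1 and CSMD2 had none. Part 1 held more FL peaks than any other part in 10 of the 31 genes. The other long genes were not counted in this way, and some of the 31 held as few as 3 FL peaks. ATAC peaks were raised at both ends, with 22.9% in part 1 and 24.5% in part 5 in native cells.

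**Figure D4:**
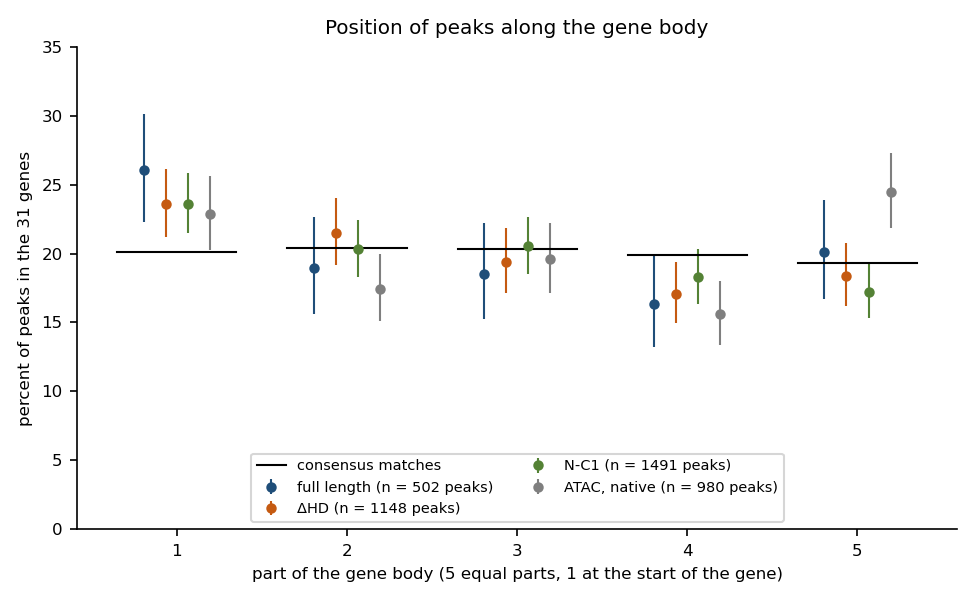
Percent of peaks in each of 5 equal parts of the gene body, from the start of the gene, pooled over the 31 genes, for FL, ∆HD, N-C1 and native ATAC, with exact 95% binomial intervals. FL peaks are highest in part 1 at 26.1%, while consensus matches (black lines) stay between 19.3% and 20.4%.

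The next question was how far FL peaks remained when a topoisomerase was inhibited. In CP 422 of the 502 FL peaks of the bodies were found again by at least 1 shared base (84.1%, 80.6 to 87.2), where 81.7% of the whole FL list were. In ICRF 476 were (94.8%, 92.5 to 96.6), against 92.9%. Of the CP peaks of the bodies 139 of 562 were absent from FL (24.7%, 21.2 to 28.5), against 23.9% of the whole CP list, and of the ICRF peaks 350 of 825 (42.4%, 39.0 to 45.9), against 43.3%. All 4 shares lay close to the background. The FL peaks missing from CP all had a fold enrichment under 9: of those with a fold enrichment under 6, 82 of 133 were found again (61.7%), while all 106 at 9 to 15 and all 56 at 15 or more were, in CP and in ICRF alike. The whole FL list stood at 59.2% under 6, 83.3% at 6 to 9 and 99.4% at 9 to 15 in CP, close to the 61.7%, 86.0% and 100% of the 31 genes. Whether a peak missing from CP was lost or fell below the caller's threshold cannot be told apart in lists whose depth is not known.

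21 genes had 10 or more FL peaks, which allowed a look gene by gene. LSAMP had the fewest found again in CP, 11 of 18 (61.1%, 35.7 to 82.7), then GALNTL6 with 12 of 19 and CNTNAP2 with 12 of 17, and the same 3 were lowest in ICRF, with 15, 16 and 15. All 17 were found again in CP in CSMD1, all 12 in CTNNA2 and all 10 in NRXN3. LRP1B, PTPRD and MAGI2 were the largest of the 9 genes with every FL peak in ICRF. By number, CCSER1 went from 20 to 32 peaks in CP and CSMD3 from 50 to 75, while LSAMP went from 18 to 12. PTPRD went from 27 FL peaks to 66 in ICRF, 2.44 for each, where the ICRF list held 1.63 for each FL peak. With 1 list for each condition, none of these differences between genes has a replicate check.

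**Figure D5:**
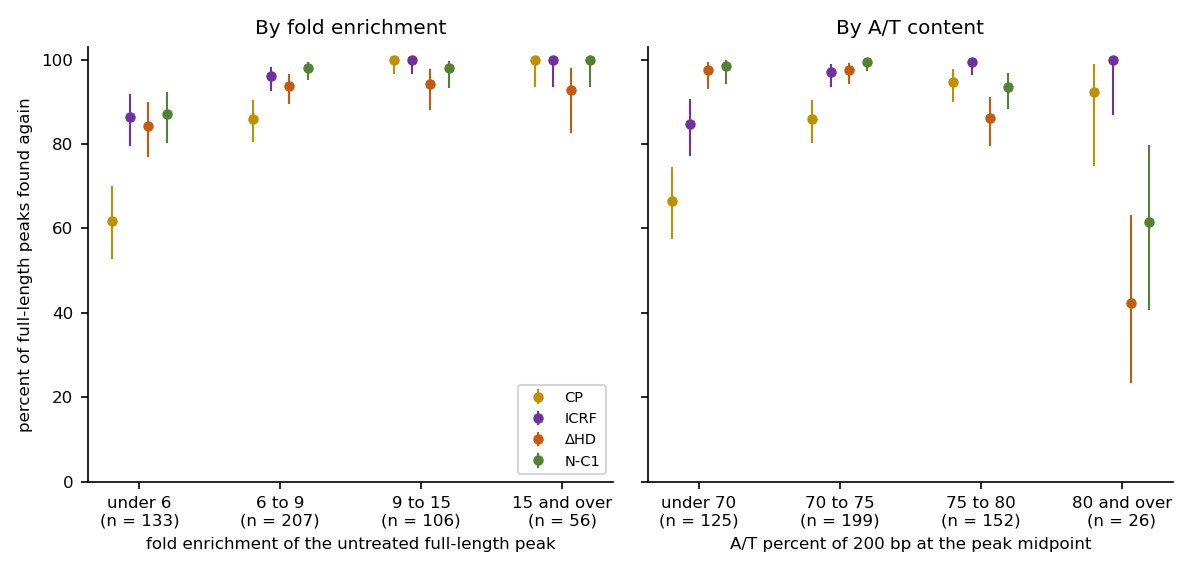
Percent of the 502 FL peaks of the 31 genes found again in CP, ICRF, ∆HD and N-C1, by fold enrichment in FL (left) and by percent A/T of 200 bp (right), with exact 95% binomial intervals. CP is lowest for weak peaks (61.7% under 6), and ∆HD is lowest for peaks of 80% A/T or more (42.3%).

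The last question was how far the FL peaks of these genes were found again with the truncated proteins. In ∆HD 458 of 502 FL peaks were found again (91.2%, 88.4 to 93.6), against 88.6% of the whole list, and in N-C1 479 (95.4%, 93.2 to 97.1), against 95.2%. The median fold enrichment in FL was 6.09 for those missing from ∆HD and 7.59 for those found. For N-C1 it was 5.51 and 7.60. Of the 56 with a fold enrichment of 15 or more, ∆HD had 52 and N-C1 all. Peaks lost and peaks below the caller's threshold cannot be told apart here either. Both truncated proteins gave many more peaks: 693 of 1148 ∆HD peaks of the bodies were absent from FL (60.4%, 57.5 to 63.2), against 60.1% of the whole list. For N-C1 it was 1014 of 1491 (68.0%, 65.6 to 70.4), against 65.4%, a background just below the interval. All 31 genes held more peaks in ∆HD and in N-C1 than in FL. Both lists were longer than FL as a whole, and the other long genes were not counted in this way. Among the 21 genes with 10 or more FL peaks, the largest gain was in CNTNAP2, from 17 FL peaks to 54 in ∆HD (3.18 for each) and 72 in N-C1 (4.24 for each), and the smallest was in MAGI2, from 25 to 40 and 54. For the whole lists the ratios were 2.21 and 2.75.

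The share of FL peaks found again in ∆HD and N-C1 was lowest among the most A/T-rich peaks. Of the 26 FL peaks of the bodies with 80% A/T or more over 200 bp, ∆HD had 11 (42.3%, 23.4 to 63.1) and N-C1 16 (61.5%, 40.6 to 79.8), while CP had 24 and ICRF all 26. Of the 152 at 75 to 80% A/T, ∆HD had 131 (86.2%) and N-C1 142 (93.4%). Of the 125 under 70% A/T, ∆HD had 122 (97.6%), N-C1 123 (98.4%), CP 83 (66.4%) and ICRF 106 (84.8%). The whole FL list showed the same order, with 41.0% in ∆HD and 97.7% in CP at 80% A/T or more. By gene, ∆HD had the lowest shares in IMMP2L and KCNIP4 (9 of 11 each) and CNTN5 (20 of 23), and all FL peaks in CCSER1 (20), CTNNA2 (12) and NRXN3 (10). N-C1 had the lowest in MACROD2 (17 of 21), CNTN5 (20 of 23) and IMMP2L (10 of 11). The largest of the 9 genes with every FL peak in N-C1 were LRP1B (35), CTNNA3 (24) and CCSER1 (20).

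379 of the 502 FL peaks were in all 5 ChIP lists (75.5%, 71.5 to 79.2), against 70.8% of the whole FL list and 75.1% in the flanks. They had a median fold enrichment of 8.15, a median of 3 matches and 73.0% A/T, whereas the 123 missing from at least 1 list had 5.82, 2 and 71.5%. Only 1 FL peak was in no other list.

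FL peaks of these genes seldom lay in open chromatin. 7 of 502 overlapped an ATAC peak of native cells (1.39%, 0.562 to 2.85), where 3.42% of the whole FL list did, and 6 one of FL cells (1.20%, 0.440 to 2.58), where 4.64% did. The flanks stood at 1.88% and 2.22%. The 9 peaks concerned lay from 221 kb (in GALNTL6) to 2170 kb (in CNTNAP2) from the start, in PCDH15, CTNNA3, CNTNAP5, ERC2, LSAMP, GALNTL6 (2), CNTNAP2 and CSMD3, and their fold enrichment ran from 5.41 (CSMD3) to 11.6 (ERC2). ATAC peaks also covered fewer bases here, as given above, and whether that low coverage accounts for the low share was not tested.

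The canonical start was open in native cells in 15 of the 31 genes and in FL cells in 11, with 10 in both. Over all protein-coding genes with a canonical transcript the share was 73.2% in native and 77.3% in FL cells, and over those of 500 kb or more 61.1% and 59.8%. The start was open in native cells at all 5 genes grouped here as fragile-site genes. Fold enrichment there was 61.0 at WWOX, 26.8 at MACROD2, 24.0 at FHIT, 12.2 at IMMP2L and 9.64 at CCSER1. DLG2 (21.6) and ERC2 (11.9) were the highest of the other 10. FL density was 1.15 peaks per 100 kb (1.02 to 1.29) in the 15 genes with an open start and 1.10 (0.958 to 1.25) in the other 16, and the intervals overlapped. With FL present, 16 genes had more ATAC peaks, 11 had fewer and 4 had the same number. Over all 31 the number was 1.03 times that in native cells, where the whole list was 1.17 times as long. DPP10 went from 27 to 15 and MACROD2 from 89 to 67, while GRID1 went from 36 to 55 and CSMD3 from 27 to 40.

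High FL density was not limited to the 31 among long genes. Of the 20 highest FL densities among the 324 genes of 500 kb or more, CSMD3 and SGCZ held 2 and the 293 other long genes 18. The 31 genes thus had about the number of places that their share of the 324 would give. Among the others RIMS2, which codes for a presynaptic scaffold, had 3.45 per 100 kb. The 34 paralogues of the 31 genes, shorter at a median of 270 kb, had a median of 0.52 FL peaks per 100 kb, against 0.90 in the 31, and 13 had none. CNTNAP4 (2.47), THSD7A (2.17) and CNTN1 (2.11) were the densest of them. The median A/T content of the paralogues was 60.4%, against 62.3% in the 31. Their consensus matches per 100 kb ran from 5.57 in KCNIP2 to 133 in CNTN1. Whether length and sequence account for the lower median density of the paralogues was not tested.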

How the data were processed

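The authors used cutadapt for trimming, Bowtie2 for alignment to the hg19 build and MACS2 for peaks, with an input library as control for ChIP. The versions of Bowtie2 and MACS2 are not given in the sources used here. The deposited peak lists give each peak's position, its fold enrichment over background (a ratio) and −log10 p and q values as the authors' caller wrote them. Only the 7 lists of MCF10A cells named above were used; the lists of mouse VL3 cells, of psoralen mapping and of the N-terminal domain were not used here. Gene bodies came from GENCODE release 44 on GRCh37. The 31 genes and all gene lists were chosen with earlier results of these data known.

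Peaks were assigned by midpoint. A peak was found again when it shared at least 1 bp. Densities have exact Poisson, shares exact Clopper-Pearson and density ratios exact conditional binomial intervals at 95%. Consensus matches were counted in 400 bp at the peak midpoint and A/T in 200 bp. The depth of each list is unknown (the study gives a range for ChIP libraries), and with 1 deposited list per condition no test was run. The genes named were the 5 highest and 5 lowest by FL density, the 3 extremes of the body-to-flank ratio and of the share found again among genes with 10 or more FL peaks, the strongest peaks of each list, the FL peak with the most matches, and the strongest ∆HD and N-C1 peaks absent from FL. Some items that this rule names are not reported here. Other genes, such as those of the ATAC counts and of part 1, were named after their values were seen. Alternatives were stricter peak thresholds, other flanks, overlap rules, windows and consensus, and leaving out each gene. Python 3.11.15, numpy 2.4.6, pandas 2.3.3, scipy 1.17.1 and pysam 0.24.0 were used, and the counting steps were tested on simulated data.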

Additional observations from a re-analysis of the deposited data

How the results depend on the processing

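No paired analysis was possible because each condition has 1 deposited peak list, with no list for each replicate. Of 126 values under other settings 92 moved by less than their interval and 34 moved further. A change of direction was looked for in the body-to-flank ratios only, and 0 of them showed it. In 1054 values with a gene left out 21 moved further. The causes were not tested. With a fold enrichment of at least 5, the share absent from FL was 19.7% in CP, 35.3% in ICRF, 55.6% in ∆HD and 60.5% in N-C1, and ICRF had 91.8% of FL peaks. With a −log10 q of at least 5, N-C1 stood at 62.2% absent from FL, the FL-cell ATAC list had 0.567% of its peaks in the bodies, and ATAC peaks covered 0.940% (native) and 0.945% (FL cells) of their bases. Flanks of 500 kb gave ATAC ratios of 0.563 and 0.509. Gene-free flanks gave 1.01 (CP), 1.03 (ICRF), 1.12 (N-C1), 0.632 (native ATAC) and 0.588 (FL-cell ATAC). With 50% reciprocal overlap ICRF had 91.2%, ∆HD 76.1% and N-C1 88.6% of FL peaks, and 66.7% of ∆HD peaks were absent from FL. In 150 bp the consensus was in 92.2% (FL), 86.8% (CP), 84.6% (ICRF), 80.1% (∆HD) and 83.5% (N-C1) of peaks. With the narrower consensus CTAATAA or CTAATAG on either strand it was in 70.1%, 67.4%, 64.8%, 64.7% and 61.2%, with 3.44 FL peaks per 100 matches in bodies and 3.23 in flanks. With the summit inside an ATAC peak 0.398% and 0.199% of FL peaks were accessible.

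Leaving out each gene in turn, the share of a list in the bodies ran from 1.98% to 2.18% in FL, 1.99% to 2.29% in CP, 1.94% to 2.20% in ICRF, 2.07% to 2.26% in ∆HD and 2.12% to 2.36% in N-C1, lowest without CSMD3. It ran from 0.506% to 0.556% in native and 0.458% to 0.491% in FL-cell ATAC. The ATAC ratio ran from 0.473 to 0.538 and from 0.435 to 0.497, the ATAC coverage from 1.14% to 1.29% and from 1.15% to 1.30%, and FL peaks per 100 matches in the flanks from 0.950 to 1.08. The checks of position along the gene were chosen after seeing the data. Without a list for each replicate or its depth, peaks near the callers' thresholds limit every comparison between lists.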

Other observations

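The long arm of chromosome 1 had the most FL peaks per 100 consensus matches of the 42 chromosome arms, 1.89, followed by that of chromosome 8 with 1.58 and of chromosome 13 with 1.27. 6 and 4 of the 20 densest long genes lay on the long arms of chromosomes 1 and 8, CSMD3 among them. The short arm of chromosome 8, with SGCZ and CSMD1, stood at 0.905.

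The strongest ATAC peak of the 31 genes lay in DLG2 (chr11:85194859-85195386), 143 kb from its start, with a fold enrichment of 145 in native and 298 in FL cells. The next was that of the WWOX start at 61.0 in native and 45.2 in FL cells. Of native ATAC peaks in the bodies 768 of 980 were found in FL cells (78.4%, 75.7 to 80.9), and in the flanks 2259 of 2649 (85.3%, 83.9 to 86.6).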
